A study of Danio rerio with 18 samples.

Results

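Whole zebrafish embryos (Danio rerio) of a her3 knockout line were compared with embryos of the wild-type WIK strain at 24 hours post fertilisation (hpf), over all genes that reached 1 CPM (reads of a gene scaled to library size) in 3 or more of the libraries sequenced. The comparison uses 6 of the 18 libraries of the study, 3 in each group, and 20738 genes were tested. The control group carries the genotype WT and received no treatment. The knockout group is titled her3_38aa, has the genotype her3 -/- and was likewise not injected. Each library is a pool of 20 to 25 whole embryos freed from the chorion at 24 hpf, so a level is an average over tissues and embryos, and fewer cells of a type cannot be told apart from less RNA per cell. How the line was made, and how many founders it has, is not given in the labels. The other 12 libraries are WIK embryos injected with a her3 morpholino (her3-MO) or a mismatch morpholino (mm-MO) at 24 hpf, and WIK and her3_38aa embryos at 72 hpf. They are used here to estimate the spread between libraries and to set levels beside those of the 6 libraries compared.

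her3 encodes a Hairy/E(spl)-related basic helix-loop-helix repressor. In zebrafish it is expressed in the early neural plate, where it holds back proneural genes in the domains between primary neuron clusters, and Notch signalling represses it rather than inducing it. Related her genes are the effectors of Notch in neural progenitors and the core of the segmentation clock in the presomitic mesoderm, the tissue from which somites form.

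The targeted transcript was measured first. her3 (ENSDARG00000076857, HES3 in the symbol table) was at 11.0, 9.24 and 9.82 CPM in WIK replicates 1 to 3, and at 22.2, 22.1 and 22.1 CPM in the libraries labelled knockout. All 3 knockout-labelled libraries were therefore above all 3 WIK libraries, and the mean was 2.21-fold higher. The log2 difference, knockout minus WIK on the log2(CPM + 0.5) scale, was 1.11 ± 0.12 (SE; adjusted p = 1.1e-05), and it stayed between 1.01 and 1.17 under the alternatives tried. Gene-level values do not show whether the transcript carries the mutation, and its level was not reduced. Every direction below is drawn between WIK and the libraries so labelled. At 72 hpf the difference was 0.51 ± 0.12 (adjusted p = 0.01), from 1.35 ± 0.114 CPM in WIK to 2.15 ± 0.313 CPM in the knockout-labelled libraries (SD, n = 3).

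The 6 libraries held 14214136 to 21949777 reads assigned to genes, with the lowest number in WIK replicate 1. WIK replicate 1 stood apart from the other WIK libraries. It differed by at least 2-fold from WIK replicates 2 and 3 in 1085 and 1384 genes, counting genes at 5 CPM or more in the higher library, whereas replicates 2 and 3 differed in 97 genes. The knockout-labelled libraries were close to each other, with 62 to 67 such genes, and were 371 to 425 genes away from WIK replicates 2 and 3. Markers of the tissues of a whole embryo were present: the 17 genes found for 15 of 18 listed markers lay between 9.45 and 4328 CPM in the 6 libraries, among them ELAVL3 of neurons, krt4 of skin and he1.1 of the hatching gland. Because of WIK replicate 1, values of the leading genes are given for each library, and many counts and calls also without it. Not every count or call that changes without it is given.

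**Figure D1:**
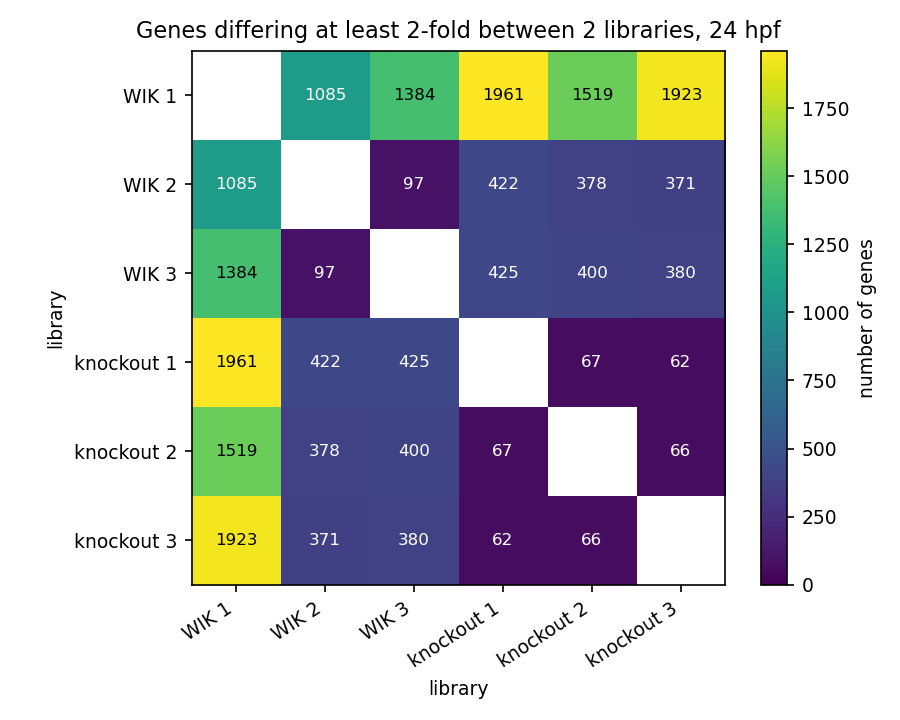
Number of genes differing at least 2-fold between each pair of the 6 libraries at 24 hpf, among genes at 5 CPM or more in the higher of the pair; rows and columns are libraries and the colour gives the count. WIK replicates 2 and 3 differ in 97 genes and the knockout-labelled libraries in 62 to 67, and every pair with WIK replicate 1 differs in 1085 or more.

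Of the 20738 genes, 2620 (12.6%) passed an adjusted p of 0.05 in limma, 1246 of them higher (6.01%) and 1374 lower (6.63%) in the knockout-labelled libraries. Among these, 604 (2.91%) differed by at least 2-fold and 110 by at least 4-fold. In 2586 of the 2620 the values of the groups did not overlap, against 6392 (30.8%) of all genes tested. Without WIK replicate 1 the count was 2079 (10.0%), of which 4.86% of all genes were higher and 5.17% lower, with 858 genes lost and 317 gained. With only the 6 libraries in the fit it was 906 (4.37%), and without knockout replicate 1 or 3 it was 1523 or 1700. A set of 269 genes passed in all 9 fits made for it (all libraries, each of the 6 libraries left out in turn, the 6 libraries alone, and voom weights on recovered reads), differed by at least 2-fold, did not overlap and reached 5 CPM in the higher group. This set held 109 genes that were higher and 160 that were lower in the knockout-labelled libraries. The genes described next come from its members with a symbol of their own that is no clone name. Among those members they have the largest moderated t or, where stated, the largest difference in mean CPM.

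Among the genes higher in the knockout-labelled libraries, several went from near the detection floor to a clear level. nebl, which encodes nebulette, an actin-binding protein of the muscle Z-disc, was at 0.764, 0.581 and 0.460 CPM in WIK and at 10.1, 8.88 and 9.57 CPM in the knockout-labelled libraries. Its mean was 15.8-fold higher, with a log2 difference of 3.19 ± 0.14 (adjusted p = 4.9e-10). alox5b.3, a gene of the arachidonate 5-lipoxygenase family, went from 0.764, 0.423 and 0.921 CPM to 9.65, 10.6 and 9.29 CPM (log2 3.13 ± 0.18, adjusted p = 1.1e-08). The phosphodiesterase 11A-like gene pde11al went from 0.170, 0.158 and 0.307 CPM to 13.3, 11.8 and 8.50 CPM (log2 4.03 ± 0.23, adjusted p = 1.3e-08). Injected embryos at 24 hpf were above every uninjected WIK library in pde11al, with means of 1.39 CPM (her3-MO) and 2.56 CPM (mm-MO). In each of these 3 genes the lowest knockout-labelled library was several-fold above the highest WIK library.

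Other genes of this group were expressed in WIK and increased in level. ARL6IP1, which in human cells shapes the tubular endoplasmic reticulum, had the most even values: 36.0, 34.3 and 37.1 CPM in WIK and 93.8, 91.8 and 91.3 CPM in the knockout-labelled libraries, a log2 difference of 1.35 ± 0.09 (adjusted p = 3.3e-08). TMOD3, a tropomodulin that caps the pointed ends of actin filaments, was at 3.82, 7.87 and 9.62 CPM in WIK and 61.5, 56.1 and 63.7 CPM in the knockout-labelled libraries (log2 3.09 ± 0.27, adjusted p = 1.4e-06). WIK replicate 1 was the lowest of the 6, and without it the difference was 2.73. cfap221, a cilia and flagella associated gene, was at 3.99, 2.48 and 3.53 CPM against 21.5, 26.8 and 24.9 CPM (log2 2.72 ± 0.21). The remaining members here were PCSK7, a proprotein convertase (1.71 ± 0.11), SPPL2B, an intramembrane protease (2.18 ± 0.19), HSPA13, an Hsp70 family chaperone (2.10 ± 0.18), homeza, a homeobox and leucine zipper gene (1.38 ± 0.11), and SLC10A3, a solute carrier (1.11 ± 0.09). Chosen by difference in mean CPM, c6.2, a terminal complement component gene, was at 15.6, 9.45 and 10.9 CPM in WIK and 39.8, 32.9 and 44.3 CPM in the knockout-labelled libraries (1.68 ± 0.23, adjusted p = 1.2e-04).

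The lower genes were led by ANXA3, an annexin that binds phospholipid in the presence of calcium. It was at 46.0, 45.0 and 50.9 CPM in WIK and at 5.25, 5.67 and 5.74 CPM in the knockout-labelled libraries, so the mean fell from 47.3 ± 3.16 to 5.55 ± 0.267 CPM (SD, n = 3; log2 difference -2.98 ± 0.12, adjusted p = 3.5e-10). TCP11L2 was at 57.3, 47.2 and 41.4 CPM against 6.50, 4.01 and 3.97 CPM (log2 -3.23 ± 0.16, adjusted p = 2.4e-09). SMNDC1, a splicing factor of the SMN-related Tudor domain family, was at 54.3, 53.1 and 42.0 CPM against 6.85, 4.71 and 6.91 CPM (log2 -2.93 ± 0.16, adjusted p = 5.1e-09). In these genes no knockout-labelled library came near a WIK library.

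ATR, the checkpoint kinase that responds to stalled replication forks, was at 67.8, 42.3 and 46.2 CPM in WIK and at 9.60, 10.8 and 11.2 CPM in the knockout-labelled libraries (log2 -2.23 ± 0.14, adjusted p = 5.1e-08). WIK replicate 1 was the highest of the 6, and without it the difference was -2.02. malb, a proteolipid gene of the MAL family, went from 11.2, 10.4 and 7.16 CPM to 0.300, 0.214 and 0.280 CPM (log2 -3.70 ± 0.20). The class II major histocompatibility gene mhc2dgb went from 19.4, 28.3 and 26.6 CPM to 2.40, 2.09 and 1.73 CPM (log2 -3.29 ± 0.23). It belongs to a gene family whose near-identical copies can share reads, and how such reads were counted is not given, so its level is uncertain. The other leading members were chico (-2.69 ± 0.13), ENTPD6, an ectonucleotidase (-2.70 ± 0.20), acte1, an actin gene (-2.78 ± 0.15), znf1124, a zinc finger gene (-2.95 ± 0.16), NIPSNAP3A (-2.08 ± 0.14) and HACD3, a dehydratase of very long chain fatty acid synthesis (-1.52 ± 0.09).

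By difference in mean CPM, abundant genes of secreted or membrane-binding proteins came first. selenop, which encodes the selenium transport protein of plasma, was at 1059, 739.8 and 661 CPM in WIK and at 273, 309.9 and 292 CPM in the knockout-labelled libraries (log2 -1.46 ± 0.21, adjusted p = 2.1e-04). The cystatin gene cst3, an inhibitor of cysteine proteases, was at 879, 623 and 585 CPM against 324, 348 and 330.5 CPM (-1.03 ± 0.18, adjusted p = 0.0011). For both genes WIK replicate 1 was the highest library, and both passed without it (log2 -1.26 and -0.85). Injected embryos at 24 hpf were also below every uninjected WIK library, at 304 to 534 CPM for selenop and 267 to 580.2 CPM for cst3. Both ranges overlapped the knockout-labelled libraries. anxa1b was at 413, 335 and 306 CPM against 156, 154 and 144 CPM (-1.20 ± 0.15). Its paralog anxa1c moved the other way, from 758, 562 and 548 CPM to 1064, 1129.8 and 1098 CPM (0.83 ± 0.15, adjusted p = 0.0013). epdl2, an ependymin-like gene, fell from 105, 72.9 and 62.8 CPM to 14.2, 18.7 and 15.4 CPM (-2.26 ± 0.28). Its means in injected embryos, 37.9 CPM (her3-MO) and 50.9 CPM (mm-MO), also lay between the groups. Those of anxa1b, 379 and 315 CPM, lay within the range of WIK.

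**Figure D2:**
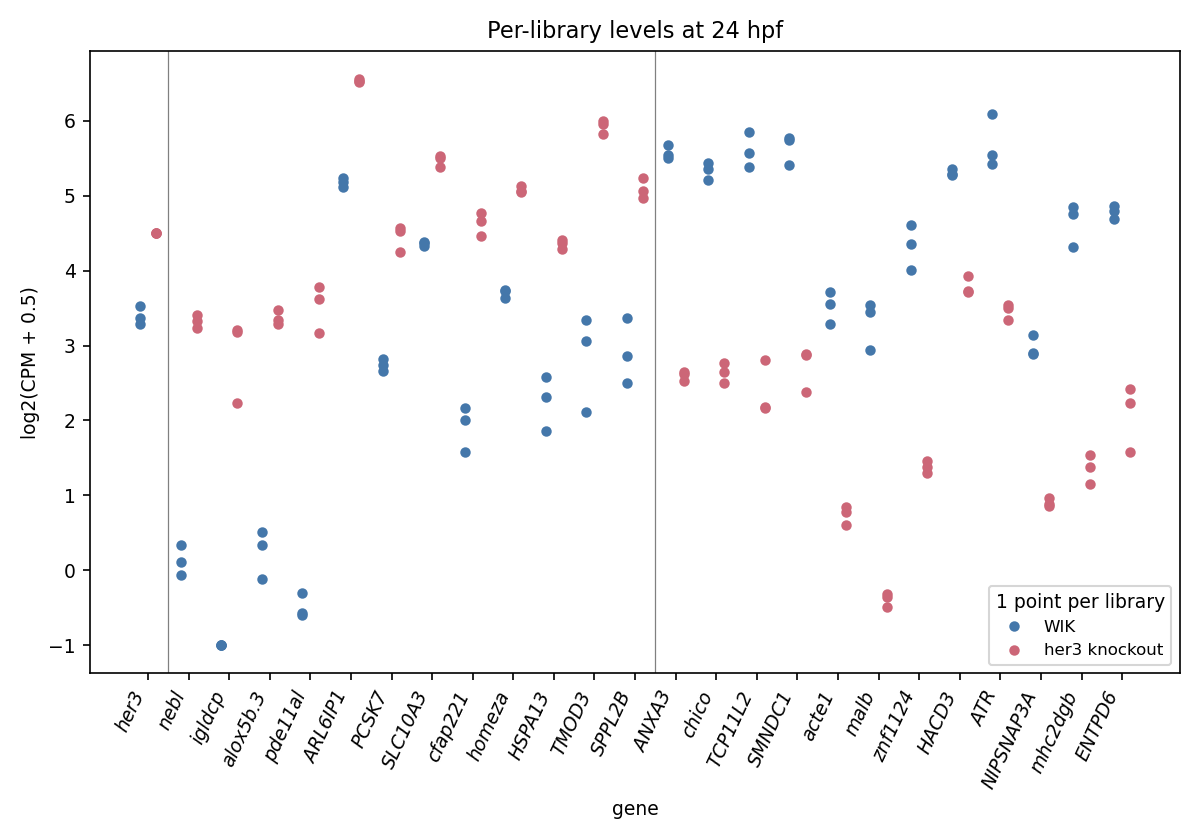
Levels of her3 and of 24 genes of the set that passed in all 9 fits, on the log2(CPM + 0.5) scale. The 24 have the 12 highest and 12 lowest moderated t among members with a symbol of their own that is no clone name. Each point is 1 library, WIK in blue and her3 knockout in red. her3 lies at 9.24 to 11.0 CPM in WIK and 22.1 to 22.2 CPM in the knockout-labelled libraries, and in each gene the groups do not overlap.

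Some genes had no read in 1 of the groups. Of 115 tested genes at 0 reads in all 3 knockout-labelled libraries 10 passed, and of 99 at 0 reads in all 3 WIK libraries 3 passed. Both are smaller shares than the 12.6% of all tested genes that passed, and the genes were picked for being at 0 in a compared group. igldcp was at 0 in every WIK library and at 8.55, 8.72 and 4.20 CPM in the knockout-labelled libraries, a mean at least 37.9-fold higher against a floor of 3 reads per library. prf1.9, a perforin gene of a multicopy family, was at 3.40, 2.96 and 2.15 CPM in WIK and had no read in any knockout-labelled library at 24 hpf, at least 18.9-fold lower. The clone-named genes si:ch73-158n7.2 and si:ch211-121a2.2 were at 3.80 to 8.15 and 3.58 to 4.42 CPM in WIK. Neither had a read in a knockout-labelled library, which makes them at least 35.4-fold and 26.4-fold lower. A floor covers counting error only, and reads of near-identical copies may have been assigned elsewhere. In both injected groups at 24 hpf these 3 genes without reads in the knockout-labelled libraries had means of 2.52 to 3.94 CPM, and igldcp had means of 0 and 0.0172 CPM. Another gene without reads in the knockout-labelled libraries, ENSDARG00000117717, was at 6.03, 3.96 and 1.07 CPM in WIK. It was nearly absent in the injected groups too, with means of 0.0982 CPM (her3-MO) and 0.0311 CPM (mm-MO).

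Genes of the presomitic mesoderm and of segmentation were higher in the knockout-labelled libraries. Of 30 tested members 10 passed, and all 10 were higher (6.01% of all genes were), with a median log2 difference over the list of 0.24 against 0.03 over all genes tested. tbx6, a T-box factor of paraxial mesoderm, was at 9.68, 11.6 and 13.9 CPM in WIK and at 27.1, 21.9 and 24.0 CPM in the knockout-labelled libraries (log2 1.04 ± 0.20, adjusted p = 0.0022). msgn1, the basic helix-loop-helix regulator of presomitic mesoderm differentiation, was at 12.1, 9.08 and 9.41 CPM against 25.1, 17.7 and 15.0 CPM (0.86 ± 0.16, adjusted p = 0.0022). her7, an oscillating component of the segmentation clock, was at 1.19, 1.74 and 1.28 CPM against 4.20, 2.57 and 2.80 CPM (0.94 ± 0.20, adjusted p = 0.0054). In each of these genes the lowest knockout-labelled library exceeded the highest WIK library, and knockout replicate 1 was the highest of all.

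mespab and mespbb, which act where the next somite boundary forms, were low but separated. mespab was at 0.934, 0.845 and 0.921 CPM against 2.75, 2.03 and 1.49 CPM (0.86 ± 0.16, adjusted p = 0.0016), and mespbb at 0.594, 0.581 and 0.716 CPM against 1.65, 1.12 and 1.21 CPM (0.69 ± 0.14, adjusted p = 0.003). pcdh8 (ENSDARG00000006467), a protocadherin of paraxial mesoderm, rose by 0.84 ± 0.18, tbx16 by 0.75 ± 0.19, FGF8 (ENSDARG00000003399), a signal of the posterior growth zone, by 0.78 ± 0.19, cdx4, a caudal homeobox factor, by 0.71 ± 0.17 and fgf17 by 0.63 ± 0.16. The 10 genes lay above all 9 of the WIK, mm-MO and her3-MO libraries at 24 hpf. They had been chosen for a difference from WIK, and the share of such genes over all tested was not counted. At 72 hpf 1 of the 10, tbx16, passed in the same direction (0.65, adjusted p = 0.035). The count was 9 without WIK replicate 1, where fgf17 did not pass (adjusted p = 0.054), and 9 without WIK replicate 2, where tbx16 did not (adjusted p = 0.063). It was 6 without knockout replicate 1, where tbx16, FGF8 (ENSDARG00000003399), cdx4 and fgf17 had adjusted p of 0.067 to 0.087, and 3 with the 6 libraries alone. The other 6, tbx6, msgn1, her7, mespab, mespbb and pcdh8, passed whichever of the 6 libraries was left out.

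Related lists held fewer calls: 8.70% of the myogenic, 7.14% of the notochord and 2.08% of the hox genes passed, against 12.6% of all genes. MYF5, a myogenic factor first expressed in presomitic and somitic cells, was at 8.66, 11.9 and 8.90 CPM in WIK and 17.7, 16.5 and 14.9 CPM in the knockout-labelled libraries (0.72 ± 0.13, adjusted p = 0.0017). It was 1 of 2 myogenic regulators of 23 that passed; the other, CDH15, passed in the fit with all libraries (1.41 ± 0.42, adjusted p = 0.037) but not without WIK replicate 1 (adjusted p = 0.17) or without any 1 of the knockout-labelled libraries, and 2 members passed lower without WIK replicate 1. Of 28 notochord genes 2 passed, col15a1b (0.34 ± 0.08) and noto (0.64 ± 0.15), both higher, where 6.01% of all genes were higher. Of the 28 differences 24 were positive, with a median of 0.24 against 0.03 over all genes tested, and the share of positive differences over all genes was not counted. The notochord count was 5 without WIK replicate 1 and 4 without WIK replicate 3. Of 48 hox genes 1 passed, hoxc3a (0.37 ± 0.11, adjusted p = 0.035), and it did not pass with any of the 6 libraries left out (adjusted p = 0.056 to 0.11).

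A measure of embryo age was taken from libraries outside the comparison. The 248 genes at least 8-fold lower in WIK at 72 hpf than in mm-MO embryos at 24 hpf had mean log2 levels of 5.92, 5.80 and 5.81 in WIK and 5.67, 5.72 and 5.65 in the knockout-labelled libraries. The 1191 genes at least 8-fold higher at 72 hpf had mean log2 levels of 0.79, 0.86 and 0.89 in WIK and 0.79, 0.82 and 0.80 in the knockout-labelled libraries. For the first set the knockout-labelled libraries lay below all 3 WIK libraries, on the side of the older embryos, and for the second set they lay within the range of WIK. Injected embryos of the same age had means of 5.65 (her3-MO) and 5.97 (mm-MO, used to choose the genes) for the first set. For the second set their means were 0.88 and 0.83. The injected groups thus had different means in the first set at the same stated age. The choice of these genes by mm-MO may have raised its mean, and whether the groups differed in stage is not known. Of the first set 14 genes were higher and 28 lower, and of the second 29 were higher and 91 lower, where 6.01% of all genes were higher and 6.63% lower. Without WIK replicate 1 the lower counts were 18 and 71, and the median log2 difference of the first set was -0.06 instead of -0.15. The part that stage may have in the segmentation, lens and pigment differences was not tested.

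**Figure D3:**
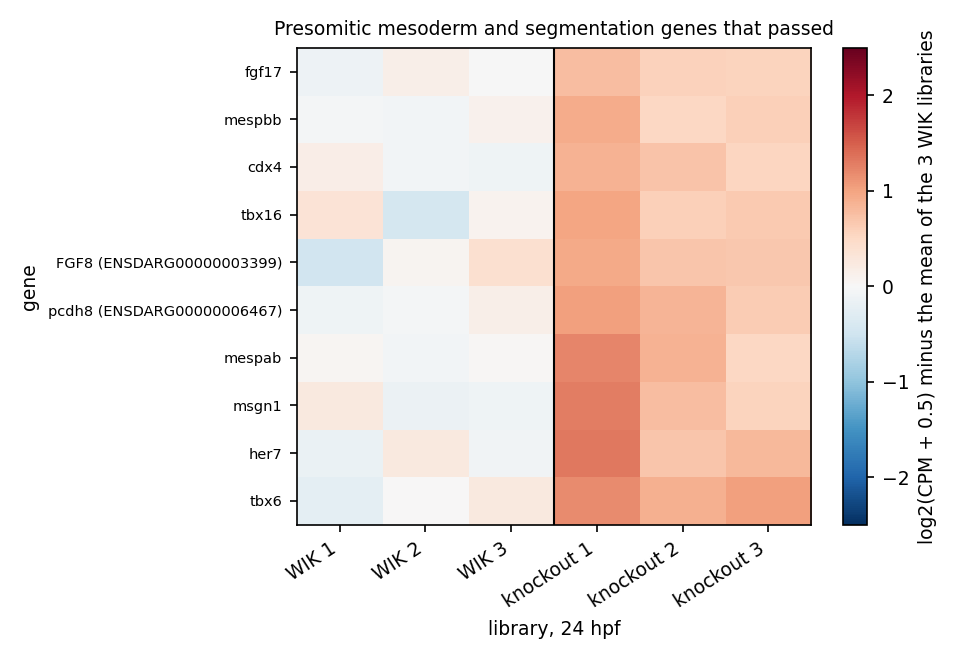
The 10 presomitic mesoderm and segmentation genes that passed; columns are the 6 libraries at 24 hpf and the colour gives log2(CPM + 0.5) minus the mean of the 3 WIK libraries. Each gene is above the WIK mean in all 3 knockout-labelled libraries, with fitted differences of 0.63 to 1.04, and knockout replicate 1 holds the highest value in all 10.

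The her, hes and hey repressors divided. Of 23 tested members 3 passed higher, namely her3, her7 and HEY1 (0.25 ± 0.07, adjusted p = 0.021), and 4 passed lower. These were 30.4% of the list, against 12.6% of all genes. The share includes her3, the targeted gene already reported, and her7, which is also counted in the segmentation list. her4.4, a Notch-induced repressor of neural progenitors, was at 53.2, 63.2 and 56.7 CPM in WIK and at 30.8, 33.3 and 35.0 CPM in the knockout-labelled libraries (-0.79 ± 0.10, adjusted p = 4.5e-05), and it was also lower at 72 hpf (-0.97). The means of her4.4 in injected WIK embryos at 24 hpf were 39.8 CPM (mm-MO) and 34.7 CPM (her3-MO), also below every uninjected WIK library at that age. The her4 genes are near-identical tandem copies, so the share of her4.4 in these reads is uncertain. her15.1 (-0.32), her8a (-0.28) and BHLHE41 (-0.88) passed with adjusted p from 0.037 to 0.043. None of these 3 passed without WIK replicate 1 or without knockout replicate 1 or 3 (adjusted p = 0.082 to 0.18). The lower count was 1 without WIK replicate 1 or knockout replicate 1, and 2 without WIK replicate 2 or knockout replicate 3. HEY1 did not pass without WIK replicate 3, knockout replicate 2 or knockout replicate 3 (adjusted p = 0.061 to 0.084).

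Within the Notch pathway 1 of 24 members passed (4.17%, against 12.6% of all genes). NOTCH1 (ENSDARG00000052094), a receptor, was at 10.1, 26.1 and 29.8 CPM in WIK and at 53.4, 45.3 and 59.8 CPM in the knockout-labelled libraries (1.37 ± 0.28, adjusted p = 0.0041). WIK replicate 1 was the lowest library, and without it the difference was 0.90 (adjusted p = 0.0024). The count of Notch genes was 2 without WIK replicate 2 and 3 without WIK replicate 3. The ligand gene jag2a differed by 0.84 ± 0.31 (adjusted p = 0.089) and notch2, another receptor, by 0.25 ± 0.10 (adjusted p = 0.11).

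Proneural and neural differentiation genes were lower where they passed. Of 26 members 5 passed and all were lower (6.63% of all genes were), with a list median of -0.11. NEUROD6 (ENSDARG00000020794), a basic helix-loop-helix factor of postmitotic neurons, was at 10.2, 7.82 and 7.93 CPM in WIK and at 2.85, 4.17 and 2.94 CPM in the knockout-labelled libraries (-1.27 ± 0.14, adjusted p = 1.5e-05). NEUROD1, a factor of the same family, was at 51.0, 37.9 and 40.0 CPM against 27.4, 28.9 and 30.2 CPM (-0.56 ± 0.11, adjusted p = 0.0035). These 2 passed with each library left out, and the others were INSM1 (ENSDARG00000053301) (-0.41 ± 0.10), EBF2 (-0.38 ± 0.10) and NEUROD4 (-0.37 ± 0.11). The count was 2 without knockout replicate 1, where INSM1 (ENSDARG00000053301), EBF2 and NEUROD4 did not pass (adjusted p = 0.052, 0.076 and 0.11), and 3 without knockout replicate 3, where EBF2 and NEUROD4 did not. NEUROD4 passed only without WIK replicate 2, and the count was 4 without WIK replicate 1. At 72 hpf NEUROD6 (ENSDARG00000020794) differed by 0.33 (adjusted p = 0.17) and NEUROD1 by 0.12 (adjusted p = 0.62).

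Of 35 genes of neural progenitors and radial glia 4 (11.4%) passed, all lower, where 12.6% of all genes passed and 6.63% passed lower. FABP7 (ENSDARG00000034650), a fatty acid binding protein of radial glia, was at 2.46, 2.06 and 2.10 CPM in WIK and at 0.50, 0.696 and 0.700 CPM in the knockout-labelled libraries (-1.26 ± 0.18, adjusted p = 1.5e-04). The mean of this gene in mm-MO embryos was 0.519 CPM, at the level of the knockout-labelled libraries. S100B (-0.75), SOX1 (ENSDARG00000008131) (-0.43) and FABP7 (ENSDARG00000007697) (-0.59) passed with all libraries, and the count of 4 was 2 without WIK replicate 1 and 1 without knockout replicate 1 or 3.

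Lens genes were lower in the knockout-labelled libraries at 24 hpf. Of 43 tested members 21 passed (48.8% of the list, against 12.6% of all genes), all lower. Of the differences 41 were negative, with a median of -0.60 against 0.03 over all genes tested. The summed level of the list was 526, 451 and 423 CPM in WIK and 245, 363 and 271 CPM in the knockout-labelled libraries, without overlap, and 3 members had no read in the 6 libraries. MIP (ENSDARG00000013963), the aquaporin of lens fibre cells, was at 3.65, 3.70 and 2.66 CPM in WIK and at 1.00, 1.82 and 1.17 CPM in the knockout-labelled libraries (-1.08 ± 0.18, adjusted p = 6.1e-04). crybb1l1, a beta crystallin gene, was at 60.0, 64.5 and 59.4 CPM against 31.2, 47.5 and 33.8 CPM (-0.72 ± 0.17, adjusted p = 0.0085). CRYAA, the alpha crystallin chaperone of the lens, was at 2.21, 2.06 and 2.71 CPM against 0.800, 0.963 and 1.07 CPM (-0.96 ± 0.24, adjusted p = 0.014). Without knockout replicate 1 neither crybb1l1 nor CRYAA passed (adjusted p = 0.056 and 0.064).

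Among the 21 genes knockout replicate 2 was the highest of its group in 18, and WIK replicate 1 the highest of its group in 15. The gamma crystallin crygm2d7 was at 3.99, 1.06 and 0.972 CPM in WIK, highest in replicate 1, and at 0.150, 0.161 and 0.140 CPM in the knockout-labelled libraries (-1.74 ± 0.36, adjusted p = 0.0039). The gamma crystallins crygm2d7 and crygm2d17 belong to tandem families of similar copies, so single genes among them are uncertain. The count of 21 was 13 without WIK replicate 1, 3 without knockout replicate 1, 10 without knockout replicate 3, 12 with voom weights and 1 with the 6 libraries alone. Only MIP (ENSDARG00000013963), crygm2d7 and crygm2d17 passed with each of the 6 libraries left out. Of these, crygm2d7 was at the floor of 3 reads in each knockout-labelled library, and crygm2d17 was under 1 CPM in all 6 libraries. At 72 hpf the log2 differences of the 21 genes lay between -0.20 and 0.09, with no adjusted p under 0.66.

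Of 33 genes of the eye field and retina 5 passed, all lower (15.2% of the list, against 12.6% of all genes). rlbp1a, a retinaldehyde-binding protein gene, was at 6.54, 4.81 and 5.22 CPM in WIK and at 2.05, 2.46 and 2.29 CPM in the knockout-labelled libraries (-1.11 ± 0.15, adjusted p = 7.7e-05). The retinal homeobox gene rx2 (-0.53 ± 0.12) and the visual cycle isomerase genes RPE65 (ENSDARG00000094752) (-0.79 ± 0.16) and RPE65 (ENSDARG00000054420) (-0.85 ± 0.23) were also lower, and the last did not pass without WIK replicate 1 or without knockout replicate 1 or 2 (adjusted p = 0.088 to 0.097). Without knockout replicate 3 a member passed higher.

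Pigment genes were lower as well. Of 19 melanin synthesis genes 7 passed, all lower, and of 22 iridophore and xanthophore genes 6 passed, all lower. These were 36.8% and 27.3% of the lists, against 12.6% of all genes tested. DCT, an enzyme of melanin synthesis, was at 96.3, 93.6 and 88.4 CPM in WIK and at 63.4, 70.3 and 66.3 CPM in the knockout-labelled libraries (-0.47 ± 0.08, adjusted p = 8.3e-04). TYRP1 (ENSDARG00000056151), another such enzyme, was at 104, 108 and 101 CPM against 63.4, 76.4 and 66.6 CPM (-0.60 ± 0.08, adjusted p = 8.2e-05). In both genes the WIK libraries lay within a few CPM of each other and above every knockout-labelled library. TSPAN10 (-0.84 ± 0.18) completed the 3 melanin genes that passed with each library left out. The melanin count of 7 was 4 without WIK replicate 1 or 2 and 3 without knockout replicate 1 or 3.

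pnp4a, a purine enzyme gene of iridophores, was at 26.7, 20.5 and 18.0 CPM in WIK and at 9.05, 13.8 and 11.3 CPM in the knockout-labelled libraries (-0.90 ± 0.16, adjusted p = 0.0011). Among the 6 iridophore and xanthophore genes it alone passed with each library left out. The count was 4 without WIK replicate 1, 2 without WIK replicate 2, 1 without knockout replicate 1 or 3 and 3 without knockout replicate 2. In addition, 2 and 1 members passed higher without WIK replicates 2 and 3. With the 6 libraries alone no iridophore or xanthophore gene passed in limma (adjusted p = 0.066 for pnp4a), where 8 were lower and 1 higher at an unadjusted p under 0.05, and with voom weights 4 passed lower. The neural crest, from which pigment cells arise, divided into 3 higher and 3 lower of 26 (23.1% of the list, against 12.6% of all genes). crestin, a transcript of the crest in zebrafish, was at 11.4, 9.45 and 11.0 CPM against 18.8, 20.4 and 21.6 CPM (0.91 ± 0.14, adjusted p = 4.8e-04), and it was further apart at 72 hpf (2.03). FOXD3, a premigratory crest factor, was at 33.6, 37.7 and 35.0 CPM against 55.4, 49.5 and 48.5 CPM (0.52 ± 0.15, adjusted p = 0.031), and twist1b at 22.8, 17.3 and 19.1 CPM against 13.3, 12.8 and 12.6 CPM (-0.58 ± 0.12). crestin and twist1b passed with each library left out, whereas FOXD3 passed only without WIK replicate 2; the higher count was 1 without WIK replicate 1 or any 1 of the knockout-labelled libraries, and the lower count was 1 without WIK replicate 1 or knockout replicate 2 or 3.

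**Figure D4:**
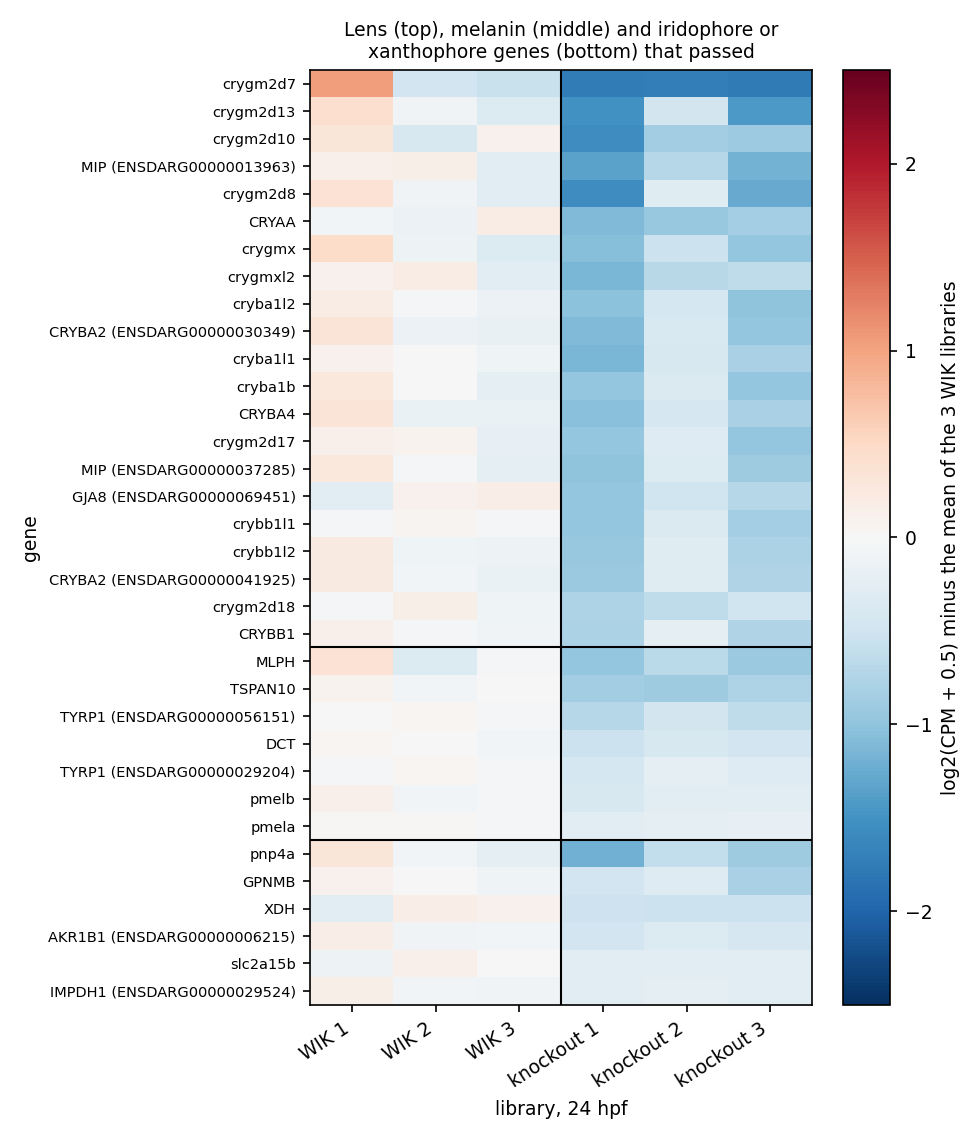
The 21 lens, 7 melanin and 6 iridophore or xanthophore genes that passed, separated by horizontal lines; columns are the 6 libraries at 24 hpf and the colour gives log2(CPM + 0.5) minus the mean of the 3 WIK libraries. Every gene has a fitted difference below 0, and knockout replicate 2 is the highest of its group in 18 of the 21 lens genes.

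Muscle genes passed in both directions. Of 48 sarcomere and calcium handling genes 6 passed higher and 6 lower (25.0% of the list, against 12.6% of all genes), with a median of 0.03. Beside nebl and TMOD3, PDLIM3 (ENSDARG00000011023), an actinin-associated LIM protein gene, rose from 6.03, 2.90 and 1.69 CPM to 19.3, 23.9 and 25.3 CPM (2.67 ± 0.31, adjusted p = 2.3e-05). CSRP1 (ENSDARG00000030980), a LIM domain protein gene, fell from 13.5, 6.13 and 9.26 CPM to 0.700, 0.482 and 0.700 CPM (-3.11 ± 0.28, adjusted p = 1.9e-06). Its paralog CSRP1 (ENSDARG00000006603) rose from 109, 91.5 and 91.2 CPM to 126, 124 and 126 CPM (0.37 ± 0.09, adjusted p = 0.014), without WIK replicate 2 or knockout replicate 1 at adjusted p of 0.051 and 0.054. pvalb1, the parvalbumin that buffers calcium in fast muscle, was at 549.5, 397 and 352 CPM against 213, 275 and 213 CPM (-0.87 ± 0.16, adjusted p = 0.0019). The higher count of 6 was 3 without knockout replicate 1, and the lower count of 6 was 4 without WIK replicate 1.

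The muscle acetylcholine receptor genes differed by subunit. CHRNG, the gamma subunit, which marks the embryonic receptor in mammals, was at 86.6, 88.4 and 84.0 CPM in WIK and at 159, 160.0 and 161 CPM in the knockout-labelled libraries (0.89 ± 0.17, adjusted p = 0.0026). CHRNE, the epsilon subunit, which replaces gamma in the mature receptor of mammals, was at 23.2, 22.4 and 24.8 CPM against 14.1, 14.3 and 13.9 CPM (-0.71 ± 0.17, adjusted p = 0.012). CHRNB1 (ENSDARG00000069660), the beta subunit, was at 43.0, 42.0 and 46.0 CPM against 24.9, 31.7 and 25.0 CPM (-0.68 ± 0.15, adjusted p = 0.0055). In all 3 the groups did not overlap and the calls held with each library left out. They belong to a list of 50 ionotropic receptor and synapse genes, of which 3 passed higher and 2 lower (10.0%, against 12.6% of all genes). The others were GLRB (ENSDARG00000052782), a glycine receptor subunit (1.00 ± 0.17), and gabra2a, a GABA receptor subunit (0.74 ± 0.20), which did not pass without WIK replicate 1 or 2 or without knockout replicate 1 or 3 (adjusted p = 0.062 to 0.077).

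Genes of plasma proteins were mostly below WIK. Their list is named for the liver, but pools of whole embryos do not show which tissue held these transcripts at 24 hpf. In WIK the mean of FGG was 131 CPM at 24 hpf and 6.92 CPM at 72 hpf. Of 38 members 7 passed lower and 2 higher (23.7% of the list, against 12.6% of all genes). Of the differences 33 were negative (median -0.30, against 0.03 over all genes tested). FGG, the fibrinogen gamma chain, was at 145, 124 and 126 CPM in WIK and at 56.0, 57.4 and 57.7 CPM in the knockout-labelled libraries (-1.19 ± 0.25, adjusted p = 0.005). apcs, a pentraxin gene, was at 11.2, 9.45 and 8.65 CPM against 0.400, 0.482 and 0.840 CPM (-3.27 ± 0.36, adjusted p = 1.2e-05). F10, coagulation factor X, went the other way, from 18.0, 17.3 and 13.8 CPM to 37.3, 38.4 and 31.8 CPM (1.11 ± 0.26, adjusted p = 0.01). In mm-MO embryos apcs was at 0.448, 1.37 and 1.96 CPM, which overlaps the knockout-labelled libraries. In her3-MO embryos it was at 3.60, 3.53 and 8.03 CPM, below every uninjected WIK library. Of the 7 lower genes 1 lay below all 9 of the WIK, mm-MO and her3-MO libraries at 24 hpf. The fibrinogen chains FGB (-0.99 ± 0.24) and fga (-0.96 ± 0.25), and RBP4 (-0.79 ± 0.21), were highest in WIK replicate 1 and did not pass without it (adjusted p = 0.059, 0.077 and 0.097). The lower count of 7 was 2 without WIK replicate 1, 2 without knockout replicate 1 and 4 without knockout replicate 3, and the higher count of 2 was 1 without any 1 library but knockout replicate 3.

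Of the blood lists, 10.3% of the erythroid and 22.6% of the leukocyte genes passed, where 12.6% of all genes did. LMO2, a haematopoietic transcription cofactor, was at 24.1, 22.4 and 22.5 CPM in WIK and at 35.9, 36.0 and 32.5 CPM in the knockout-labelled libraries (0.59 ± 0.08, adjusted p = 6.6e-05), 1 of 2 genes higher among 29 erythroid members. The other was znfl2a (0.48 ± 0.11), and the globin hbae1.3 was lower (-0.74 ± 0.22, adjusted p = 0.041) with 926 CPM in WIK replicate 1 against 461 and 473 CPM in the others; it did not pass without that library (adjusted p = 0.16) or without any 1 of the knockout-labelled libraries, while 3 erythroid genes were lower without WIK replicate 3. Among 31 leukocyte genes 3 were higher and 4 lower, and without WIK replicate 1 the counts were 2 and 3. cybb, the phagocyte oxidase subunit, was at 7.30, 9.45 and 8.49 CPM against 14.3, 13.3 and 16.1 CPM (0.76 ± 0.15, adjusted p = 0.0029). In injected embryos cybb was at 12.9, 12.8 and 12.7 CPM (her3-MO) and 13.4, 9.66 and 12.8 CPM (mm-MO), above every uninjected WIK library at 24 hpf. The protease genes ctss2.2 (-0.70 ± 0.16) and npsn (-0.82 ± 0.18) were lower.

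The immediate-early and inflammatory genes divided within WIK. Of 32 immediate-early genes 8 passed (25.0% of the list, against 12.6% of all genes), all lower in the knockout-labelled libraries. ATF3, a stress-induced transcription factor, was at 50.3, 19.9 and 54.6 CPM in WIK and at 15.4, 13.9 and 11.8 CPM in the knockout-labelled libraries (-1.45 ± 0.25, adjusted p = 0.001). FOSL1, a Fos family member, was at 26.5, 6.18 and 31.3 CPM against 4.05, 3.96 and 3.50 CPM (-2.05 ± 0.42, adjusted p = 0.004). In both, WIK replicate 2 lay close to the knockout-labelled libraries and far from the other WIK libraries. Of 29 inflammation and complement genes 5 passed lower and 1 higher (20.7% of the list), the higher being the chemokine gene cxcl20 (0.99 ± 0.19). PTGS2 (ENSDARG00000010276), the inducible cyclooxygenase, was at 44.3, 13.9 and 59.7 CPM in WIK and at 5.40, 4.50 and 3.69 CPM in the knockout-labelled libraries (-2.77 ± 0.34, adjusted p = 4.3e-05), and it was higher at 72 hpf (1.73, adjusted p = 0.003).

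irg1l, an immune-responsive gene, was at 44.0, 3.54 and 97.1 CPM in WIK and at 3.45, 3.32 and 3.17 CPM in the knockout-labelled libraries (-2.77 ± 0.71, adjusted p = 0.016). WIK replicate 2 was thus at the level of the knockout-labelled libraries, and irg1l did not pass without WIK replicate 1 (adjusted p = 0.089), WIK replicate 3, knockout replicate 1 or knockout replicate 3. The immediate-early count of 8 was 15 without WIK replicate 2 and 6 without WIK replicate 1, where 1 member also passed higher. With the 6 libraries alone no immediate-early gene passed in limma, where 8 were lower and 1 higher at an unadjusted p under 0.05, and with voom weights 8 passed lower. The inflammation count of 5 was 12 without WIK replicate 2, 2 without WIK replicate 1, 3 without WIK replicate 3, 1 without knockout replicate 1 and 2 without knockout replicate 3, and the higher count was 2 without WIK replicate 1 or 3. The mm-MO and her3-MO means of ATF3 were 10.5 and 13.0 CPM, at the level of the knockout-labelled libraries. Those of FOSL1 were 4.09 and 3.91 CPM, of PTGS2 (ENSDARG00000010276) 3.73 and 6.05 CPM, and of irg1l 2.53 and 5.28 CPM. For all 4 genes these means were far below WIK replicates 1 and 3. The part that handling of the pools may have was not tested.

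Matrix and signalling genes held single large differences. MMP14 (ENSDARG00000008388), a membrane-type matrix metalloproteinase, was at 7.64, 8.56 and 7.62 CPM in WIK and at 29.7, 27.1 and 29.1 CPM in the knockout-labelled libraries (1.79 ± 0.13, adjusted p = 1.7e-07). It was 1 of 3 of 25 metalloproteinase and inhibitor genes that passed, all higher, with TIMP2 (ENSDARG00000075261) (0.45 ± 0.09) and RECK (0.97 ± 0.28), which did not pass without WIK replicate 1 (adjusted p = 0.094) or any 1 of the knockout-labelled libraries; 6 were higher without WIK replicate 3, and 1 passed lower without WIK replicate 1 or 2. With all libraries 12.0% of this list passed, against 12.6% of all genes. The means of TIMP2 (ENSDARG00000075261) in injected embryos were 27.5 CPM (her3-MO) and 27.4 CPM (mm-MO), at the level of the knockout-labelled libraries (26.9 CPM). Among 47 Ras and growth factor receptor genes 3 were higher and 1 lower (8.51% of the list). HRAS (ENSDARG00000098497), a small GTPase, was at 13.5, 11.3 and 11.5 CPM against 21.2, 19.7 and 19.1 CPM (0.71 ± 0.09, adjusted p = 3.9e-05). ERBB2, a receptor tyrosine kinase of the EGF receptor family, was at 2.04, 4.17 and 5.06 CPM against 10.2, 8.72 and 9.48 CPM (1.30 ± 0.27, adjusted p = 0.0041). The means of ERBB2 in injected embryos were 8.82 CPM (her3-MO) and 6.62 CPM (mm-MO), both above every WIK library. The higher count in this list was 8 without WIK replicate 3.

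Of 42 cartilage, bone and collagen genes 3 were higher and 3 lower (14.3%, against 12.6% of all genes). COL12A1 (ENSDARG00000078322), a fibril-associated collagen, was at 69.7, 92.8 and 98.3 CPM in WIK and at 47.4, 50.2 and 48.0 CPM in the knockout-labelled libraries (-0.82 ± 0.11, adjusted p = 9.7e-05). COL14A1, a collagen of the same class, was at 65.5, 67.5 and 75.5 CPM against 115, 101 and 109 CPM (0.64 ± 0.11, adjusted p = 0.0011). TNMD, the tendon marker tenomodulin, rose from 0.849, 0.845 and 0.563 CPM to 2.40, 2.57 and 1.54 CPM (1.08 ± 0.18). The higher count was 6 without WIK replicate 3, and without WIK replicate 1 there were 4 higher and 4 lower. Of 40 skin and keratin genes 3 were higher and 4 lower (17.5% of the list), among them anxa1c and anxa1b above and krt91 (-0.74 ± 0.14). Without WIK replicate 1 the counts were 5 and 2, and without knockout replicate 1 the lower count was 2.

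Metabolic genes were mixed, and 18.2% of the lipid and sterol and 15.0% of the mitochondrial list passed, against 12.6% of all genes. Of the chaperone list 5.71% passed. FDPS, an enzyme of the sterol pathway, was at 184, 173 and 166 CPM in WIK and at 97.0, 106 and 110.0 CPM in the knockout-labelled libraries (-0.74 ± 0.13, adjusted p = 8.9e-04), 1 of 5 lower and 3 higher among 44 lipid and sterol genes. The lower count was 3 without WIK replicate 2 or 3 or any 1 of the knockout-labelled libraries, and 6 without WIK replicate 1. SIRT5, a mitochondrial deacylase, was at 10.7, 9.45 and 8.19 CPM against 0.350, 0.482 and 1.17 CPM (-3.15 ± 0.30, adjusted p = 3.0e-06), and it was lower at 72 hpf too (-3.57). UQCRC1, a core subunit of respiratory complex III, was at 237, 203 and 197 CPM against 131, 136 and 99.2 CPM (-0.81 ± 0.11, adjusted p = 1.4e-04). These 2 were among 4 lower and 2 higher of 40 mitochondrial genes, and 3 were lower without WIK replicate 1. HSP90B1, the endoplasmic reticulum chaperone, was at 167, 143 and 117 CPM against 71.1, 79.9 and 72.7 CPM (-0.91 ± 0.12, adjusted p = 6.8e-05), the 1 lower of 35 chaperone genes, with HSPA8 (ENSDARG00000037403) the 1 higher (1.83 ± 0.27) and 2 higher without WIK replicate 3. The means of HSPA8 (ENSDARG00000037403) in injected embryos were 2.08 CPM (her3-MO) and 2.80 CPM (mm-MO), at the level of the knockout-labelled libraries (2.40 CPM).

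Some differences depended on WIK replicate 1. ACVR2B (ENSDARG00000103108), an activin receptor, was at 4.42, 15.4 and 18.4 CPM in WIK and at 35.5, 27.3 and 32.4 CPM in the knockout-labelled libraries, and its log2 difference of 1.49 ± 0.35 was 0.88 without that library (adjusted p = 0.01 and 0.0075). PLA2R1 was at 0.425, 2.32 and 2.97 CPM against 5.70, 5.62 and 6.26 CPM, with 1.61 ± 0.35 and 1.02. VEZF1 (ENSDARG00000061030), at 2.55, 9.24 and 9.06 CPM against 12.9, 12.7 and 15.7 CPM, passed with WIK replicate 1 (adjusted p = 0.04) and not without it (adjusted p = 0.12); it did not pass without any 1 of the knockout-labelled libraries either. In the other direction, snorc, a cartilage proteoglycan gene, was at 28.3, 9.67 and 8.39 CPM against 19.8, 20.6 and 20.4 CPM. Its values overlapped, with an adjusted p of 0.26 with all libraries and 0.0034 (log2 1.13) without WIK replicate 1.

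The values were also set beside those of the injected WIK embryos at 24 hpf. The genes counted here had been chosen for a difference from the WIK libraries, which are 3 of the 9 libraries used. The counts are thus partly fixed in advance, and the share over all tested genes was not counted. Of the 2620 genes that passed, 1681 had all 3 knockout-labelled values outside the range of the 9 WIK, mm-MO and her3-MO libraries. So had 233 of the 269, and 23 of the 24 leading genes, chosen by moderated t among those with a symbol of their own. The exception was SLC10A3, at 45.0, 41.3 and 45.9 CPM in the knockout-labelled libraries and 36.8, 40.7 and 45.0 CPM in mm-MO embryos. chico lay outside that range but was low in mm-MO embryos too, at 9.79, 10.7 and 9.28 CPM, against 5.75, 6.32 and 5.18 CPM in the knockout-labelled and 42.9, 40.4 and 36.5 CPM in the WIK libraries. The mean in her3-MO embryos was 41.9 CPM.

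At 72 hpf the comparison uses other libraries in both groups, so no library is shared with that at 24 hpf. Of the 2620 genes, 708 (27%) passed at 72 hpf in the same direction and 69 in the opposite one, where 2245 genes (10.8%) passed in all. Of the 269 genes, 148 (55%) passed in the same direction and 6 in the opposite one, and of the 24 leading genes 21 did so in the same direction. ARL6IP1 differed by 1.35 at 24 hpf and 1.56 at 72 hpf, TCP11L2 by -3.23 and -2.99, and SMNDC1 by -2.93 and -2.76. pde11al (0.34 at 72 hpf), NIPSNAP3A (-0.43) and mhc2dgb (-0.29) were the 3 leading genes that did not pass at 72 hpf. The difference between the 24 and 72 hpf contrasts itself passed for 963 genes (4.64% of all tested).

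**Figure D5:**
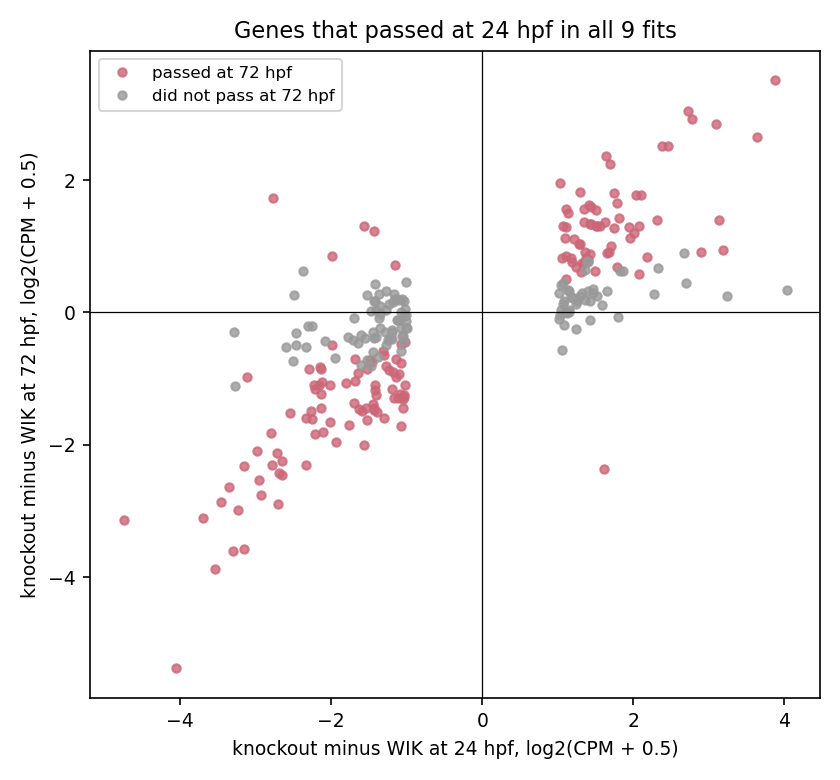
Log2 difference, knockout minus WIK on the log2(CPM + 0.5) scale, at 24 hpf (horizontal) and 72 hpf (vertical) for the 269 genes that passed in all 9 fits at 24 hpf; 1 point is 1 gene, red where it also passed at 72 hpf. The 148 genes that passed in the same direction lie in the lower left and upper right, and 6 passed in the opposite direction.

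Genes that neighbour her3 in the RefSeq annotation were listed by name. That annotation is of another assembly than the build of the files, and it placed 70.3% of the tested genes, so a check of position over all tested genes is void and the shares describe the placed genes alone. Within 5 Mb of her3 in that assembly 28 of 98 placed genes passed (28.6%), 18 higher and 10 lower, against 12.3% of those placed elsewhere, and 7.14% against 2.58% passed and differed by at least 2-fold. Without WIK replicate 1 the shares that passed were 24.5% and 9.64%. The genes at least 2-fold apart and nearest to her3 went in both directions. si:ch211-251b21.1 was at 58.1, 53.2 and 57.1 CPM in WIK and at 18.4, 24.0 and 22.5 CPM in the knockout-labelled libraries (-1.36 ± 0.09, adjusted p = 3.0e-08), and msmbl at 78.0, 46.9 and 41.7 CPM against 10.0, 11.5 and 9.10 CPM (-2.34 ± 0.24). si:ch211-163b2.4 was at 15.3, 10.1 and 9.57 CPM against 52.1, 63.2 and 70.9 CPM (2.38 ± 0.22), and PIWIL1, a germline Argonaute protein gene, at 3.14, 2.22 and 2.10 CPM against 6.80, 6.15 and 5.88 CPM (1.20 ± 0.15). GPR153 (1.26 ± 0.20) and LGI3 (1.01 ± 0.19) were higher, and EGR3 was lower (-1.46 ± 0.33). Of these 7, si:ch211-163b2.4 passed at 72 hpf, where it differed by 2.52 (adjusted p = 1.1e-06), and the other 6 did not (adjusted p = 0.21 to 0.83). EGR3 and LGI3 were low in the injected groups, at means of 0.223 to 0.639 CPM.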

How the data were processed

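The labels describe poly(A) RNA sequencing with a directional kit from pools of 20 to 25 whole embryos. The authors deposited 1 table of normalised CPM values for 25535 genes and 18 libraries. Per the submitters' processing notes, the tools were edgeR 3.34.0, featureCounts 2.0.2, HISAT2 2.2.1 and SAMtools 1.10, with the danRer11 build. Their settings, the annotation, the strand option and how multi-mapping was handled are not given here. CPM totals of 999983 to 1206849 in the 6 libraries show scaling to an effective library size. Within each library 100.0% of values fell on whole read numbers (tolerance 0.01 reads), which gives the read numbers, and 3 reads, the floor used at 0, are 0.14 to 0.255 CPM.

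From the deposited CPM values, log2(CPM + 0.5) was computed for the 20738 genes that reached 1 CPM in 3 libraries or more; 4797 were removed. This scale understates differences of low genes. limma 3.58.1 in R 4.3.3 (lmFit, eBayes with trend and robust moderation) was fitted to all 18 libraries with 1 coefficient per group (12 residual degrees of freedom). Two-sided p-values were adjusted by Benjamini-Hochberg over all genes tested, and a gene passed at 0.05. The submitters describe the replicates as biological. The recovered reads were used with limma's voom weights only as an alternative. The count tests that had been planned as alternatives, and that the naming rule calls for, were not run, because the table holds normalised values with libraries in its rows; voom took that place in the rule. The fit was tested on simulated data for this comparison with 20738 genes: of 50 genes per size it recovered 49 and 50 at log2 differences of -2 and 2, and 41 and 46 at -1 and 1, with 15 false calls. The simulation gave all libraries the same mean profile, apart from the changed genes, and 1 dispersion for all genes. It held no library that stood apart as WIK replicate 1 does, so its counts do not measure recovery or false calls in the real data.

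Symbols came from a table of gene names that covers 23539 genes, many in human-type capitals; a gene that shares its symbol is printed with its Ensembl ID. The genes named are her3; the genes of the set that passed in 9 fits, with a symbol of their own that is no clone name, that have the 12 highest and 12 lowest moderated t or the 5 largest differences in mean CPM each way; up to 5 genes at 0 reads in a group each way; the 4 members of each list with the lowest adjusted p; up to 8 genes at least 2-fold apart nearest to her3; and 6 genes each in which WIK replicate 1 lay farthest off or whose call needed its removal. Other members of a list were named after their values were seen. The comparison, the 34 gene lists (1195 symbols, 1095 matched) and the rule were chosen with earlier results of these data known. Lists are described by counts and medians without a test of their own. Same-numbered libraries did not deviate together (correlations -0.19, -0.30 and 0.18), so replicate numbers were not used as pairs. Alternatives were other pseudocounts, filters and scalings, the 6 libraries alone, a replicate block, voom, and each library left out. Tables and plots used Python 3.11.15, pandas 2.3.3 and matplotlib 3.10.9. Some genes are not reported here.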

Additional observations from a re-analysis of the deposited data

Results flagged for a closer look

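The knockout minus WIK difference was tested at 24 hpf against that at 72 hpf, and 67 of the genes named or called in a list differed between the ages in limma (adjusted p under 0.05). These genes were chosen for their difference at 24 hpf, so nothing is read from their number. PTGS2 (ENSDARG00000010276) differed by -2.77 at 24 hpf and 1.73 at 72 hpf, so that the difference between ages was -4.49 on the log2(CPM + 0.5) scale (adjusted p = 5.1e-05). PER2 differed by -0.47 and 2.95 (-3.41, adjusted p = 2.0e-08), and pde11al by 4.03 and 0.34 (3.69, adjusted p = 8.0e-06). Each value below is the difference at 24 hpf minus that at 72 hpf, and what separates the ages was not tested.

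Among genes with a higher difference at 24 than at 72 hpf, the largest values were those of pde11al (3.69), CDH15 (2.34), nebl (2.24), PDLIM3 (ENSDARG00000011023) (1.77), alox5b.3 (1.72), GPR153 (1.62) and ERBB2 (1.52). Next in size were SPPL2B (1.35), her7 (1.26), hamp (1.22), TNMD (1.14), FGF8 (ENSDARG00000003399) (1.12), MMP14 (ENSDARG00000008388) (1.1) and pcdh8 (ENSDARG00000006467) (1.08). They were followed by CHRNG (0.99), MYF5 (0.98), PIWIL1 (0.98), msgn1 (0.97), cxcl20 (0.97), mespab (0.96) and mespbb (0.82). Then came irf9 (0.73), PCSK7 (0.71) and ACSL4 (ENSDARG00000010752) (0.51).

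Among genes with a lower difference at 24 than at 72 hpf, the largest values in size were those of PTGS2 (ENSDARG00000010276) (-4.49), irg1l (-4.05), PER2 (-3.41), mhc2dgb (-2.99), FOSB (-2.60), fosaa (-2.40) and FOSL1 (-2.25). Next in size were apcs (-2.16), CSRP1 (ENSDARG00000030980) (-2.13), epdl2 (-2.05), msmbl (-1.82), ATF3 (-1.80), EGR3 (-1.78) and NIPSNAP3A (-1.65). They were followed by hpxb (-1.64), nnt2 (-1.60), NEUROD6 (ENSDARG00000020794) (-1.59), ier2b (-1.51), si:ch211-251b21.1 (-1.45), JUND (-1.29) and pnp4a (-1.28). Then came FABP7 (ENSDARG00000034650) (-1.21), MIP (ENSDARG00000013963) (-1.17), PTGS2 (ENSDARG00000004539) (-1.15), ATR (-1.13), crestin (-1.13), rlbp1a (-1.0) and cst3 (-0.97). Smaller values belonged to SQLE (ENSDARG00000079946) (-0.97), ANXA3 (-0.89), NFIL3 (-0.89), FDPS (-0.89), ENSDARG00000113271 (-0.88), TFAP2E (-0.86) and tnfrsf9a (-0.85). Lower in the order were XDH (-0.83), TYRP1 (ENSDARG00000056151) (-0.71), EBF2 (-0.70), NEUROD1 (-0.67), HACD3 (-0.66), tefa (-0.65) and DCT (-0.53). The last was XPC (-0.39).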

How the results depend on the processing

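The count of 2620 genes lay between 2055 and 2795 under the other pseudocounts, filters, scalings and voom, was 906 with only the 6 compared libraries, and ranged from 1523 (without knockout replicate 1) to 3394 (without WIK replicate 3) with 1 library left out. The count of 604 genes at least 2-fold apart was 382 with a filter of at least 5 CPM and 294 with a pseudocount of 2 CPM, 906 with a pseudocount of 0.1 CPM, 449 with the 6 libraries alone and 821 with voom, and ranged from 534 to 897 with 1 library left out. Without the 4 libraries that stood apart in their groups it was 536, and 3898 genes passed. her3 was higher in every fit run (log2 1.01 to 1.17). A replicate block gave 2410 and 597 genes; the replicate numbers did not pair the libraries, and their best matches in WIK were replicates 3, 1 and 2. No difference of a named gene changed sign. Of 186 other named genes, 71 fell on the other side of the threshold with the 6 libraries alone, 32 without knockout replicate 1 and 31 without knockout replicate 3; the cause was not tested. Scaling to the plain total moved the median log2 difference of all genes from 0.03 to 0.07. The planned tests on counts were not run. With 3 pools a group and 3 reads at 0.14 to 0.255 CPM, counting error limits the values of genes under 1 CPM most.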

Other observations

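Of 39 circadian clock and light response genes 5 were lower and 2 higher in the knockout-labelled libraries at 24 hpf (17.9%, against 12.6% of all genes). With the 6 libraries alone none passed in limma, where 5 were lower and 4 higher at an unadjusted p under 0.05, and with voom weights 4 passed lower. PER2, a light-induced clock gene, was at 9.17, 12.9 and 13.2 CPM in WIK and at 9.10, 7.92 and 7.84 CPM in the knockout-labelled libraries (log2 -0.47 ± 0.13, adjusted p = 0.029), and it did not pass without WIK replicate 2 or 3 or without knockout replicate 2 or 3. At 72 hpf the same gene was higher by 2.95 (adjusted p = 6.0e-10). NFIL3, a bZIP repressor of the clock output, was at 40.4, 34.3 and 32.1 CPM against 24.0, 25.2 and 26.1 CPM (-0.49 ± 0.11, adjusted p = 0.0054). The lower count was 4 without WIK replicate 1, 3 without WIK replicate 2 or knockout replicate 1 or 2 and 1 without knockout replicate 3. The higher count was 0 without WIK replicate 1 or any 1 of the knockout-labelled libraries and 4 without WIK replicate 3.

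Of 51 cell cycle genes 2 were lower and 1 higher (5.88%), and bub1bb, a spindle checkpoint gene, was at 87.1, 93.7 and 93.0 CPM against 60.3, 73.9 and 66.0 CPM (-0.45 ± 0.08, adjusted p = 0.0012); the higher count was 0 without WIK replicate 1 or knockout replicate 1 or 2 and 3 without WIK replicate 3, and the lower count was 1 without WIK replicate 1 or any 1 of the knockout-labelled libraries. Of 19 interferon and antigen presentation genes 2 were higher and 2 lower (21.1%), with mhc1zba at 29.1, 25.5 and 29.3 CPM against 42.6, 45.4 and 44.6 CPM (0.65 ± 0.11) and isg20 at 49.3, 38.2 and 35.2 CPM against 22.6, 20.6 and 20.8 CPM (-0.91 ± 0.13); the lower count was 1 without WIK replicate 1 or 2 or knockout replicate 1 or 3. Of 31 heart and endothelium genes 1 (3.23%) was higher, nppb (0.90 ± 0.27), which passed with no library but WIK replicate 1 left out (adjusted p = 0.072 to 0.12 otherwise), and 3 were lower without WIK replicate 3 and 1 without WIK replicate 1. Of 12 hatching gland genes 2 (16.7%) were lower, npsn and AGR2, and 1 was without WIK replicate 1 or any 1 of the knockout-labelled libraries. The gene npsn is also counted in the leukocyte list. AGR2 was the gene that did not pass in those fits (adjusted p = 0.15 without WIK replicate 1). Of 17 pancreas and gut genes 2 were lower and 1 higher (17.6%); the lower count was 1 without WIK replicate 1 or any 1 of the knockout-labelled libraries and the higher count was 0 without knockout replicate 3.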
